A study of Saccharomyces cerevisiae with 5 samples.

Results

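Host genes with filled promoters are the *Saccharomyces cerevisiae* genes whose nucleosome signal just upstream of the listed start site was not far below that over the first part of the transcribed region. They numbered 266 of 4571 measured genes (5.82%). They were selected on a promoter ratio, which sets the mean signal between -120 and -20 bp against that between +100 and +500 bp on the log2 scale, with 0.1 times the gene's own mean signal added to both. A gene was included where the mean of this ratio over 5 libraries was above -0.5. Genes on chromosomes II and X were left out by the rule, as was any gene whose mean signal fell under 10% of the library median in a library. That left 4571 of 4580 genes outside those chromosomes, of 5264 in each table. On the left-out chromosomes 40 of 365 genes (II) and 223 of 316 (X) exceeded the threshold and are not described. Because the ratio chose the genes, its values are a description and carry no test.

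Mononucleosomal DNA was sequenced from 5 host strains with 1 library each. YAC1, YAC2 and YAC3 carried artificial chromosomes with *Kluyveromyces lactis* DNA, and YAC6 and YAC7 carried artificial chromosomes with *Debaryomyces hansenii* DNA. All 5 strains were grown without added tryptophan and uracil, in yeast extract, peptone, adenine and 2% dextrose. Cell walls were removed with zymolyase and chromatin was cut with micrococcal nuclease, an enzyme that digests the DNA between nucleosomes. The labels used here name neither the host background nor its mating type, nor whether a strain is 1 clone, and only host genes are described. Each strain differs from the others in its insert and its library at once, so these cannot be told apart. The strains served as the replicates, and the spread between them may be technical.

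In budding yeast most active genes have a nucleosome-depleted region upstream of the start site, kept open by stiff A and T rich DNA, by general regulatory factors and by remodellers such as RSC. A regularly spaced array follows it, beginning with the +1 nucleosome. Promoters of inducible genes, such as those for sporulation, mating, nutrient uptake and stress, are more often covered by nucleosomes that are evicted on induction.

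The genes with filled promoters had a different mean profile from the others on the upstream side. With each gene scaled to its own mean, the other 4305 genes had their lowest point near -56 ± 5.48 bp (SD, n = 5 libraries) at a level of 0.158 ± 0.0494. Genes with filled promoters had a nucleosome peak at -146 ± 5.48 bp with a level of 1.60 ± 0.173. Their low point lay at -30 bp in all 5 libraries, at a level of 0.583 ± 0.0589. The +1 peak stood at 80 bp in both sets and in every library, with a level of 1.38 ± 0.0747 for filled promoters and 1.60 ± 0.103 for the others. The +2 peak lay at 248 ± 4.47 bp and 246 ± 5.48 bp, but its level was 1.06 ± 0.108 for filled promoters and 1.59 ± 0.0587 for the others. Spacing of the first nucleosomes was therefore alike in the mean profiles, while the amplitude of the +2 peak was lower for filled promoters. The +2 peak lies in the transcribed window of the ratio, where low signal favours inclusion. Its lower level can therefore follow in part from the choice of genes, and how far it does was not tested.

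**Figure D1:**
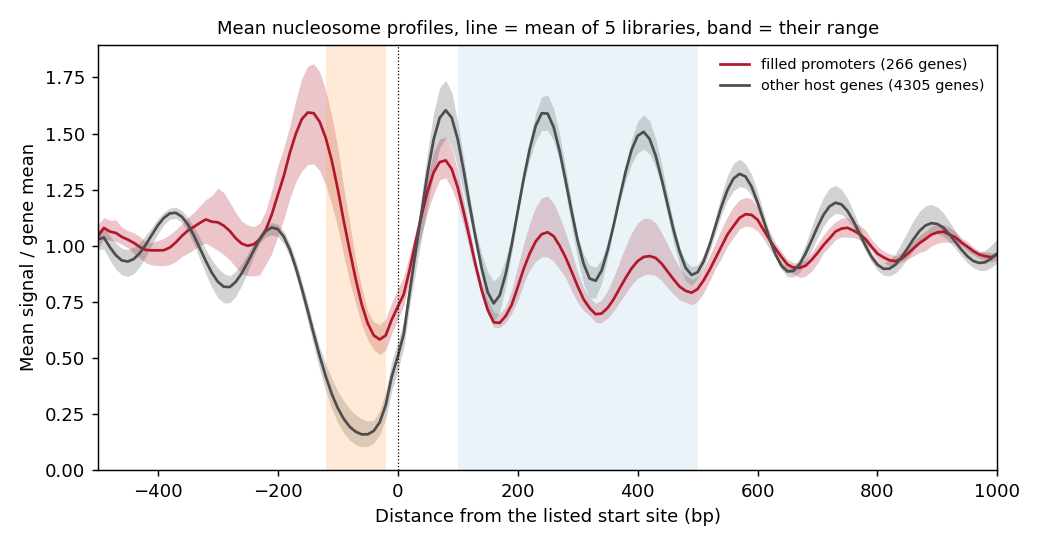
Mean nucleosome signal over the gene mean (y axis) against distance from the listed start site in bp (x axis), for the 266 genes with filled promoters and the 4305 other genes; lines are means of 5 libraries, bands their range, and the shaded windows are those of the ratio (orange promoter, blue transcribed region). The red line peaks near -146 bp, where the grey line is already falling towards its low point near -56 bp.

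Most of the extra signal lay in the upstream part of the promoter window. From -120 to -80 bp the median level was 1.20 times the gene mean, against 0.200 in the other genes. From -50 to -20 bp it was 0.482 against 0.168. The whole window had a median of 0.837 against 0.189, and it exceeded the gene mean in 83 filled promoters (31.2%) and in 4 other genes. The transcribed side also entered the choice. Its median level was 0.876 against 1.15, and in 20 filled promoters and 4 other genes it was under 0.5 times the gene mean. The mean signal of the genes was ordinary, with medians of 0.985 and 0.992 times the library median.

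The 12 highest ratios belonged to PAU10, YGR035W-A, YNL033W, PRM7, SLZ1, YHL015W-A, YHR213W-A, PET18, RNP1, YPR159C-A, GAL3 and RPL29. PAU10 (YDR542W, chromosome IV), a member of the seripauperin family of cell wall proteins made under anaerobic conditions, had ratios of 3.03, 2.57, 2.94, 2.82 and 3.33 in the 5 strains in numerical order. All 5 libraries were high and close together. Its promoter stood at 1.89 to 2.47 times the gene mean, and its transcribed side at 0.155 to 0.283. In at least 1 library 40 of its 151 bins held no signal, and the part of missing coverage in its ratio was not tested.

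Genes known only by a systematic name were common near the top. YGR035W-A (chromosome VII) had ratios of 2.97, 1.90, 1.73, 2.70 and 2.34 in YAC1, YAC2, YAC3, YAC6 and YAC7. Here the promoter itself was high, at 2.30 to 3.08 times the gene mean, with no empty bin. YHL015W-A (chromosome VIII) had the highest promoter level of the 12, with a mean of 2.90 and a range from 2.23 in YAC6 to 4.01 in YAC7. Its transcribed side was at 0.997, and its lowest stretch was centred at 35 bp, within 20 bp in the 5 libraries. YNL033W and YHR213W-A had 50 and 68 empty bins in at least 1 library. YPR159C-A (chromosome XVI) had ratios from 0.54 in YAC6 to 1.93 in YAC3.

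The named genes among the 12 included regulated ones. SLZ1 (YNL196C, chromosome XIV), a gene of early meiosis, had ratios of 1.08, 1.88, 2.06, 0.89 and 1.77 in the same order of strains. GAL3 (YDR009W, chromosome IV), the sensor that switches on galactose genes, had 1.16, 1.28, 1.56, 0.74 and 1.67. Both were above 0 in every library, and YAC6 was the lowest for both. The GAL3 promoter held 1.31 to 2.07 times the gene mean, in cells grown on dextrose. PRM7 (YDL039C, chromosome IV), a gene induced by pheromone, had 2.04, 0.73, 1.36, 1.94 and 1.88. Its lowest stretch lay at 205 bp in the mean profile but at -385 bp in YAC2, and 29 of its bins were empty in at least 1 library. PET18 (YCR020C, chromosome III) had 1.28, 1.41, 1.92, 0.60 and 1.86. Its depleted stretch was centred at -395 bp in all 5 libraries, with a depth of -2.69. Depth here is the log2 of the lowest 100 bp mean between -500 and +500 bp over the gene mean. Before the log, 0.1 times the gene mean was added to both. Unless libraries or strains are named, depth and place were taken on the profile averaged over the 5 libraries. RNP1 (YLL046C, chromosome XII), an RNA-binding protein gene, had 1.22, 0.88, 2.53, 0.45 and 1.77, again with YAC6 lowest and YAC3 highest.

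Over all 266 genes the median of the mean ratio was -0.15, against -2.13 for the others. The mean was above 0 for 101 genes and above 1 for 11, and 44 genes were above 0 in every library. Just inside the threshold lay LIN1, SUL2 and FMP16, and just outside lay SVF1, EFM1 and DMC1, the last a meiotic recombinase gene. The mean ratios of all 6 round to -0.50. The boundary therefore separates genes that differ by less than their spread over libraries, which was 0.201 for LIN1 and 0.319 for SVF1.

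A depleted region lay elsewhere for most filled promoters. The lowest 100 bp overlapped the promoter window in 64 genes (24.1%), against 81.1% of the other genes. In 104 genes (39.1%) it lay upstream of the window, with a median centre of -365 bp, and in 98 genes (36.8%) it lay downstream, with a median centre of 290 bp. Among the other genes 17.3% had it upstream and 1.58% downstream. These shares follow in part from the choice, because a filled window is rarely the lowest place. The downstream share does so as well, because low signal between +100 and +500 bp raises the ratio. Of the 64 overlapping stretches, 57 were centred between -60 and 0 bp, at the edge of the window nearest the start site.

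**Figure D2:**
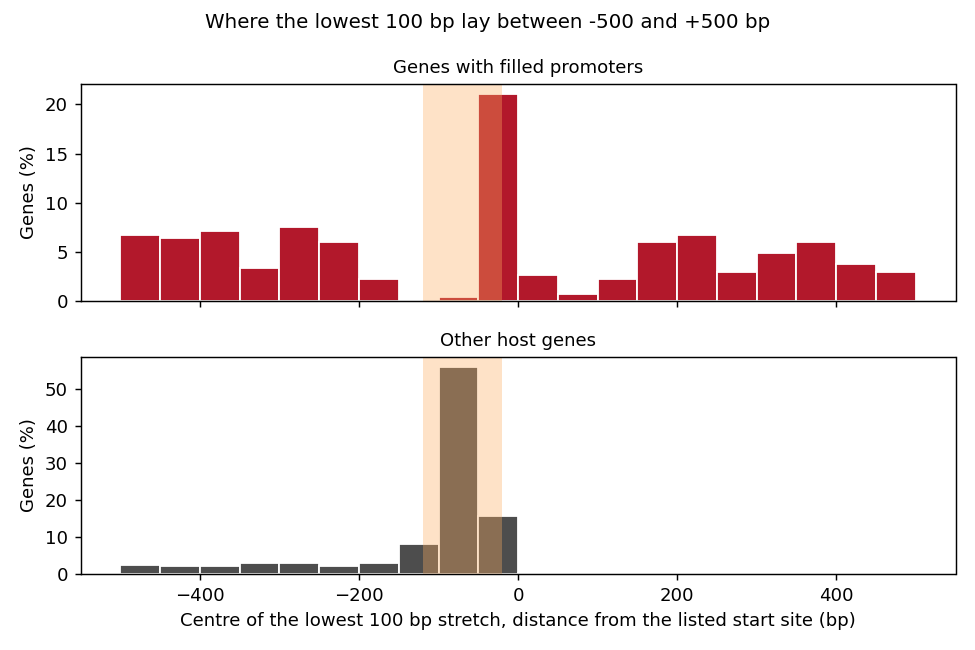
Share of genes in percent (y axis, separate scales) by the centre of the lowest 100 bp stretch between -500 and +500 bp, in bp from the listed start site (x axis), for filled promoters (top) and other genes (bottom); the promoter window is shaded. Filled promoters spread over 39.1% upstream, 24.1% overlapping and 36.8% downstream, while 81.1% of the other genes overlap the window. Stretches are those of the profile averaged over the 5 libraries.

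In the profile averaged over the 5 libraries, the stretches were shallower than a usual depleted promoter. Averaging can flatten a stretch whose place differs between libraries, and its part here was not tested. Median depths were -1.76 upstream, -1.60 downstream and -1.25 in the overlapping class, against -2.30 for other genes with an overlapping stretch. Counting a stretch as depleted at a depth of -1 or lower, 188 filled promoters (70.7%) had one that did not overlap the window, the lowest upstream in 89 and downstream in 99. The other genes had one in 58.9%. By side, the lowest such stretch was upstream in 33.5% of filled promoters and in 47.8% of the other genes. It was downstream in 37.2% and 11.1%. In the averaged profile no stretch reached -1 from -500 to +500 bp in 50 filled promoters (18.8%) and in 60 other genes (1.39%). Without the 22 genes that had over 10% of their bins empty in some library, the share with a depleted stretch elsewhere was 68.4%. Without YAC6 it was 76.7% for all 266 genes.

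The deepest stretches lay mostly in genes with empty bins. By depth, the first 4 upstream were MSH4, MST28, MST27 and OLE1, and the first 4 downstream were HXT11, FEX1, PAU10 and EFT1. Of these 8 genes, 7 had over 10% of their bins empty in some library. Several have near-identical copies in the genome, such as EFT1 and EFT2 for elongation factor 2, MST27 and MST28, and the hexose transporter family of HXT11, so their signal is uncertain where reads were shared or dropped. The exception was OLE1 (YGL055W), the fatty acid desaturase gene. Its ratios were -0.09, 0.15, 1.00, -0.90 and 0.64 in YAC1, YAC2, YAC3, YAC6 and YAC7. Its stretch was centred at -435 bp with a depth of -3.16, and at most 6 bins were empty in a library.

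Some filled promoters had the usual profile at another place. The mean profile of the other genes was slid along each gene by up to 300 bp, and the shift with the highest correlation over the bins was taken. The best shift was within 30 bp for 47 filled promoters (17.7%), against 82.0% of the other genes. At a larger shift, 28 filled promoters (10.5%) reached a correlation of 0.7, 17 of them towards upstream and 11 towards downstream, against 5.04% of the other genes. Both are shares of all genes in the set, and the 82.0% of other genes with a small best shift could not count. The median correlation at the best shift was 0.482 for filled promoters and 0.706 for the other genes, so most filled promoters matched less well. Neighbouring bins are not independent, so these correlations describe shape and no more.

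DAL7 (YIR031C, chromosome IX), the malate synthase gene of allantoin breakdown, had the closest match, with a correlation of 0.90 at -160 bp. Its ratios were 0.38, 0.49, 0.60, 0.30 and 0.61 in YAC1, YAC2, YAC3, YAC6 and YAC7, one of the steadiest sets. Its depleted stretch was centred at -215 bp in the mean profile and between -225 and -215 bp in every library, with a depth of -2.07. TDA10 (YGR205W) matched with 0.83 at -180 bp. CBS1 (YDL069C), an activator of mitochondrial cytochrome b translation, matched with 0.80 at -160 bp and kept its stretch within 30 bp. RPL34A, for a large subunit ribosomal protein, matched with 0.81 at -190 bp. In the other direction, YDL159W-A matched with 0.87 at 290 bp, YMR155W with 0.85 at 200 bp and MAY24 with 0.83 at 110 bp. MAY24 had its depleted stretch at 55 bp, within 10 bp over libraries, at a depth of -2.40. The depths of the lowest stretch in these 7 genes ran from -1.67 in YMR155W to -2.91 in RPL34A, against a median of -2.28 in the other genes.

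Grouped by function, the share of filled promoters ran from none to all of a list, against 5.82% of all genes. Many lists are small, and no list was tested. Lists need not hold every gene of a function, so the counts cover the listed genes only. All 4 measured flocculin genes, which encode lectin-like proteins of cell adhesion, were included. FLO1 had a mean ratio of 0.90, FLO5 0.61, FLO10 -0.27 and FLO9 -0.33. Among seripauperin and related anaerobic cell wall genes 3 of 7 were included, PAU10, PAU17 at -0.21 and PAU23 at -0.42. The COS family gave 1 of 2, COS12, which failed the rule without YAC1, and the hexose transporters gave 1 of 7, HXT11. Copies of the flocculin and seripauperin genes are alike, so reads may have been shared among them, and FLO9 had 32 empty bins in some library.

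**Figure D3:**
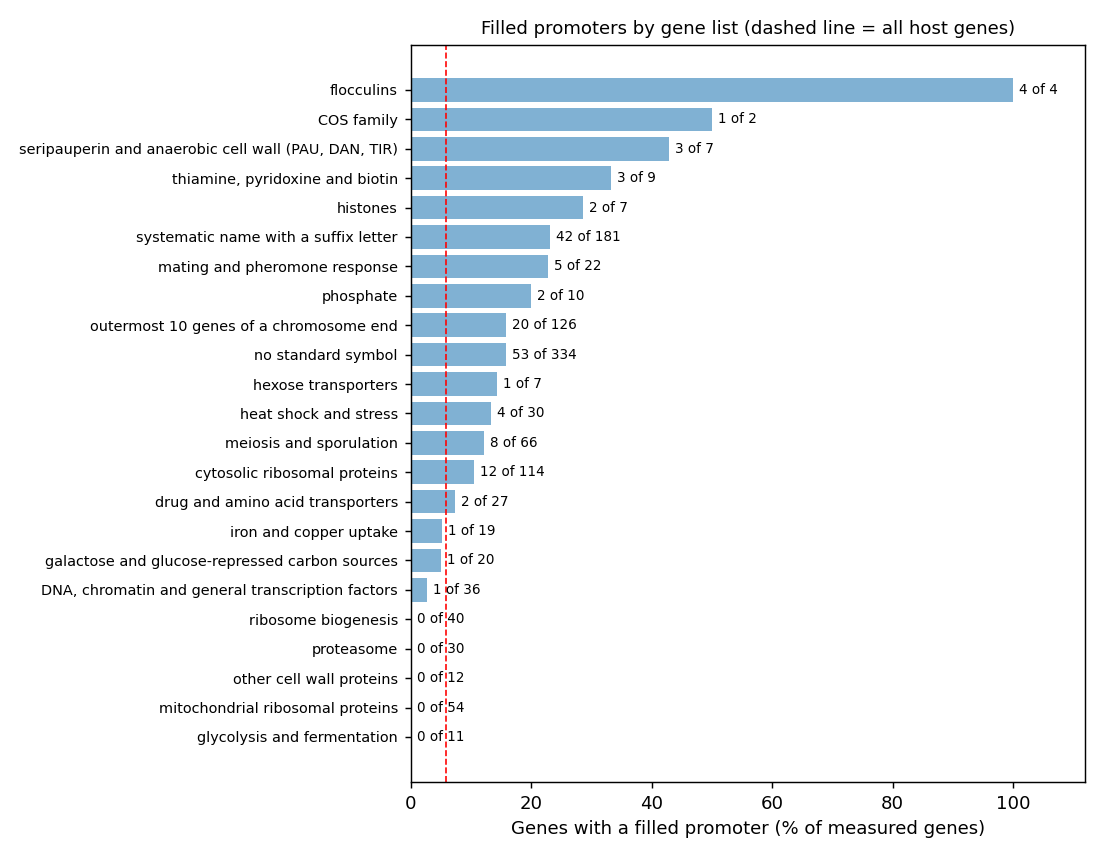
Share of measured genes in each list that had a filled promoter, in percent (x axis, bars), with counts beside each bar and the dashed line at 5.82% for all measured genes. Flocculins stand at 4 of 4, while proteasome, ribosome biogenesis and mitochondrial ribosomal protein genes have none.

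The flocculins shared their highest and their lowest library. FLO1 had ratios of 0.77, 1.25, 0.54, 1.26 and 0.70 in YAC1, YAC2, YAC3, YAC6 and YAC7. FLO5 had 0.94, 0.58, -0.14, 1.44 and 0.23. In all 4 genes YAC6 was the highest library and YAC3 the lowest, the reverse of what most unsteady genes showed. The combination was seen in 25 filled promoters (9.40%) and in 8.71% of the other genes. Without YAC6, 3 of the 4 flocculins passed the rule.

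Genes of meiosis and sporulation, silent in vegetative cells, gave 8 of 66 (12.1%). They were MSH4 for crossover formation, the meiotic cohesin gene REC8, ADY3 for spore wall assembly, the chromosome axis gene RED1, MEI5, HOP2 and MEI4 for recombination and pairing, and SPO77. REC8 (YPR007C) had ratios of 0.53, 0.35, -0.05, 0.74 and 0.62. In the profile averaged over the 5 libraries it had no stretch deeper than -0.45. Taken library by library, its lowest stretch had a mean depth of -1.17 in the *K. lactis* strains and -1.56 in the *D. hansenii* strains. The median ratio over all 66 genes was -1.66, against -2.07 over all measured genes. Leaving out 1 library at a time gave 7 to 10 such genes. SLZ1, the gene of early meiosis among the 12 highest, was not on this list and is not counted here.

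Genes of mating gave 5 of 22 (22.7%), namely PRM7, MFA2, STE2, HO and PRM3. MFA2 (YNL145W), which encodes the a-factor pheromone, had ratios of 0.17, 0.17, 0.08, 0.37 and 0.06. All 5 values fell within a narrow range above 0, and a depleted stretch of depth -2.39 lay at -235 bp. STE2 (YFL026W), the alpha-factor receptor, had 0.40, -0.59, -0.77, 0.57 and -0.50. It was above 0 in YAC1 and YAC6 only, and its lowest stretch lay downstream at 365 bp.

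Stress and nutrient genes held further examples. Of 30 heat shock and stress genes 4 were included, namely HSP12, the glycogen synthase gene GSY2, the glycogen phosphorylase gene GPH1 and the catalase gene CTT1. Of 10 phosphate genes there were 2, VTC3 for polyphosphate synthesis and the acid phosphatase gene PHO11. Of 9 thiamine, pyridoxine and biotin genes there were 3, SNO1, THI72 and THI22. HSP12 (YFL014W), a small stress protein gene, had ratios of -1.16, 0.38, 1.83, -3.05 and 0.81, one of the widest ranges. Its promoter level went from 0.0894 times the gene mean in YAC6 to 2.98 in YAC3. The siderophore transporter gene ARN1 was the only one of 19 listed iron and copper uptake genes (5.26%), at -0.35 ± 0.0801 (SD, n = 5). Without YAC3 2 of these 19 passed the rule. Of 27 drug and amino acid transporters PDR15 and PUT4 were included, of which 1 passed without YAC1 and 1 without YAC2. Of 20 galactose and other carbon source genes only GAL3 was included.

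Several lists had no filled promoter. None of 30 proteasome genes, 40 ribosome biogenesis genes, 54 mitochondrial ribosomal protein genes, 11 glycolysis and fermentation genes and 12 other cell wall genes was included, and for the smallest of these lists a count of 0 is near the 5.82% of all genes. Their highest mean ratios were -1.34, -1.26, -0.57, -0.85 and -1.62. Of 36 listed genes for DNA, chromatin and general transcription factors only RSC3, which encodes a subunit of the RSC remodeller itself, was included. TAF8 and RTT109, which are outside that list, also had filled promoters. Its ratios were -0.30, 0.02, 0.18, -1.09 and 0.04. The zeros held in every leave-one-out for proteasome, ribosome biogenesis and other cell wall genes. Without YAC6, 1 glycolysis gene and 1 mitochondrial ribosomal protein gene passed the rule, and without YAC1 1 mitochondrial ribosomal protein gene did.

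Of the 7 histone genes measured outside chromosomes II and X, HHF2 and HHT2 were included. They encode histones H4 and H3, lie back to back on chromosome XIV and share a promoter region. HHF2 (YNL030W) had ratios of 1.12, 0.35, 1.17, -0.34 and 1.51. HHT2 (YNL031C) had 0.32, 0.32, 1.55, -0.98 and 1.47. In both, YAC6 was the lowest library and the only one below 0. The promoter level of HHT2 was 0.520 in YAC6 and 2.15 in YAC3. Both passed the rule whichever library was left out.

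Genes without a standard name were included more often than named ones. Of 334 measured genes known only by a systematic name, 53 (15.9%) had a filled promoter, against 213 of 4237 (5.03%) with a standard symbol. Of 181 genes whose systematic name carries a suffix letter, which were added after the first annotation and are mostly short, 42 (23.2%) were included. Names with neither a symbol nor a suffix gave 23 of 257 (8.95%). The +100 to +500 bp window runs past the end of a short gene. Gene lengths were not used here, and their part in the result was not tested.

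Ribosomal protein genes were the largest class by function, with 12 of 114 (10.5%), and the least steady. They were RPL29, RPS8B, RPS24B, RPL26A, RPS0A, RPL42B, RPL34A, RPS17A, RPL2B, RPL40A, RPL35A and RPL1A. In 11 of the 12, YAC6 was the lowest library and YAC3 the highest, and 9 had an SD above 1 on the log2 scale. The same combination was common elsewhere, in 30.8% of all filled promoters and in 23.7% of the other genes. Their median ratio was highest in YAC3 at 1.62, followed by YAC7 at 0.51, YAC2 at 0.24, YAC1 at -1.03 and YAC6 at -2.73. The number of ribosomal protein genes that passed the rule was 27 without YAC6, 16 without YAC1, 8 without YAC2, 6 without YAC7 and 4 without YAC3. Their inclusion therefore depends on which libraries enter the mean.

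**Figure D4:**
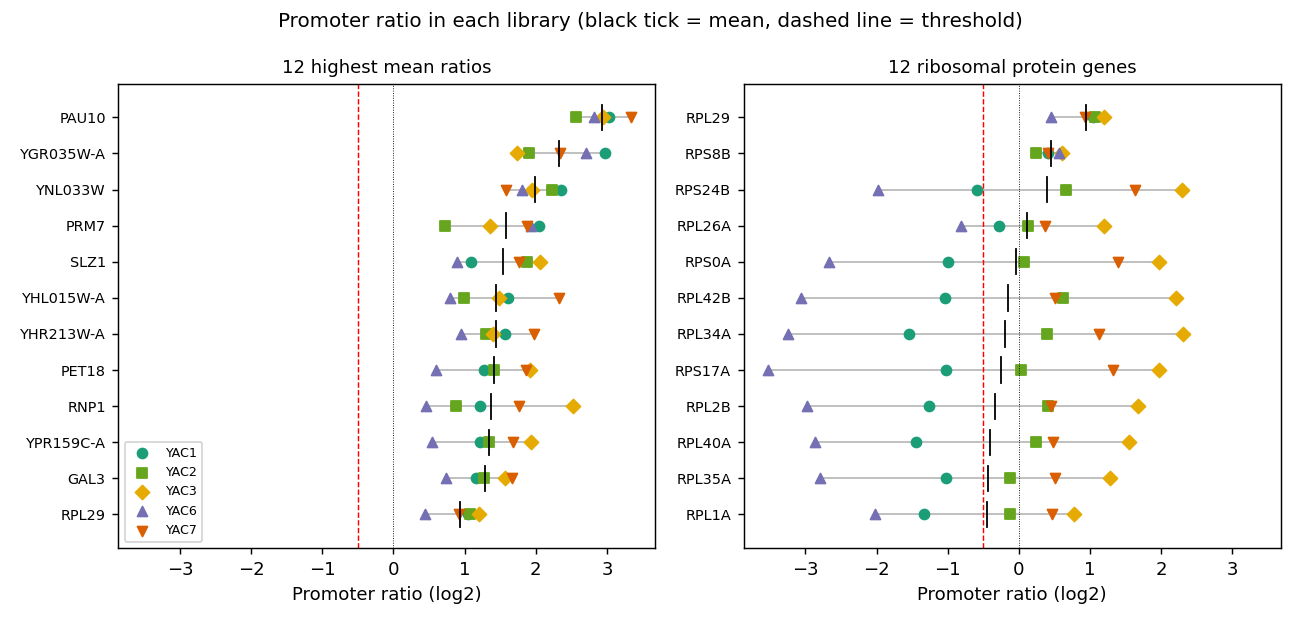
Promoter ratio on the log2 scale (x axis) in each of 5 libraries (symbols) for the 12 highest genes (left) and the 12 ribosomal protein genes with filled promoters (right); black ticks are means and the dashed line is the threshold of -0.5. On the left every point lies above 0, while on the right most genes run from under -2 in YAC6 to above 1 in YAC3.

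RPL34A (YER056C-A, chromosome V) showed the widest spread of all 266 genes, with an SD of 2.21. Its ratios were -1.55, 0.39, 2.31, -3.24 and 1.13 in YAC1, YAC2, YAC3, YAC6 and YAC7. The promoter level went from 0.0339 times the gene mean in YAC6 to 3.03 in YAC3. The same window was therefore nearly empty in 1 strain and well above the gene mean in another. RPS17A (YML024W, chromosome XIII), for a small subunit protein, had -1.03, 0.03, 1.98, -3.52 and 1.32, with an SD of 2.17. RPS0A (YGR214W, chromosome VII) had -0.99, 0.07, 1.97, -2.66 and 1.40. The libraries kept the same order in all 3 genes. A depleted stretch lay upstream in all 3, at -275, -345 and -455 bp, and for RPL34A its centre stayed between -285 and -255 bp in every library.

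RPL29 and RPS8B were the steady exceptions. RPL29 (YFR032C-A, chromosome VI) had ratios of 1.04, 1.07, 1.20, 0.45 and 0.93. RPS8B had 0.40, 0.24, 0.61, 0.57 and 0.41, an SD of 0.147. The signal of RPS8B was 0.460 times the library median and 28 of its bins were empty in some library. Most ribosomal protein genes have a near-identical paralog, so their values are uncertain where reads were shared.

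The other 102 ribosomal protein genes moved in the same order of libraries. Their median promoter level was 0.507 in YAC3, 0.423 in YAC7, 0.329 in YAC2, 0.181 in YAC1 and 0.0893 in YAC6. Those with filled promoters had 2.05, 1.23, 1.12, 0.506 and 0.104 in that order. In YAC6 the 2 sets lay close together, and in YAC3 they were farthest apart. In the mean profile of the 12 genes, the highest bin between -250 and -20 bp was at -110 bp with a level of 3.52 in YAC3, and at -130 bp in YAC7, YAC2 and YAC1 with levels of 2.14, 1.48 and 0.86. In YAC6 it was the last bin searched, at 0.58. YAC6 and YAC7, the lowest and the second highest in this order, both carried *D. hansenii* DNA, and insert and library cannot be told apart.

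**Figure D5:**
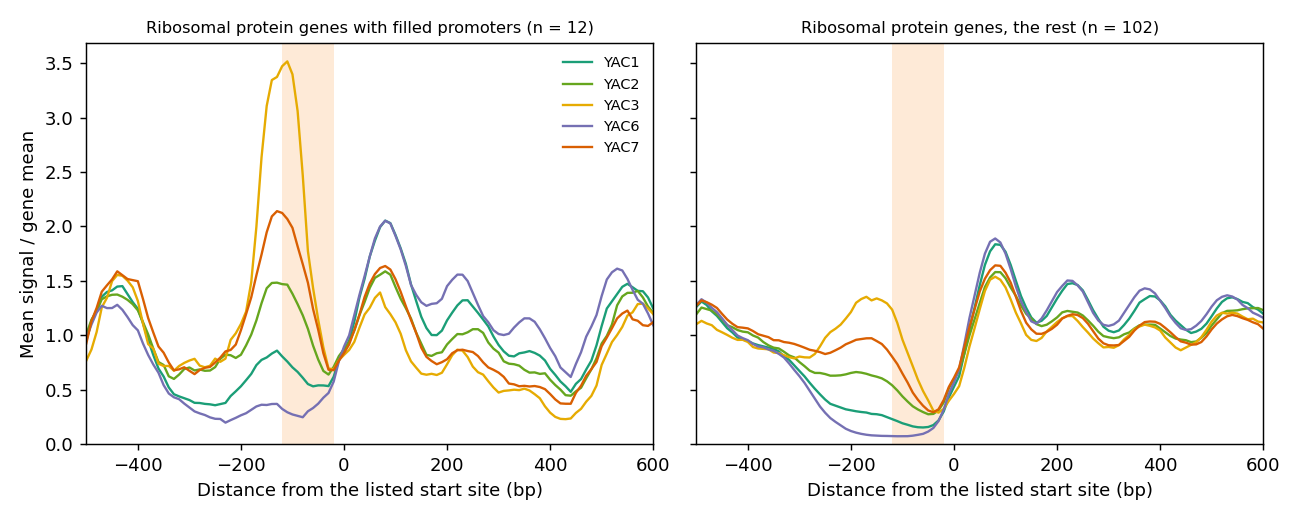
Mean signal over the gene mean (y axis) against distance from the listed start site in bp (x axis) in each library, for the 12 ribosomal protein genes with filled promoters (left) and the other 102 (right); the promoter window is shaded. The upstream peak reaches 3.52 in YAC3 on the left and is missing in YAC6, and on the right the libraries keep the same order at lower levels.

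An SD above 1 was seen in 27 filled promoters (10.2%) and in 184 other genes (4.27%). YAC6 was the lowest library in 25 of the 27, and in 23 YAC3 was also the highest. Whatever the SD, YAC6 was the lowest in 50.8% of filled promoters and in 39.0% of the other genes. YAC3 was also the highest in 30.8% and 23.7%. Of the 27, 9 were the ribosomal protein genes above. Of the remaining 18, YAC6 was the lowest in 16, and YAC3 was also the highest in 14. These 18 included HSP12, HHT2, THI72, the beta-glucan synthase gene GSC2 and the acyl-CoA binding protein gene ACB1. PUT4 (YOR348C), the proline permease gene, ran the opposite way, with -0.16, -0.05, -2.79, 2.64 and -1.84. Its promoter level was 2.11 in YAC6 and 0.144 in YAC3.

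For the typical gene the spread was close to that of the other genes. The median range over libraries was 0.875, against 0.900 for the other genes. The median SD over libraries was 0.359, against 0.366 for the other genes. The ratio was above -0.5 in all 5 libraries for 110 genes, in 4 for 69, in 3 for 66, in 2 for 20 and in 1 library for ULI1 alone. The steadiest were YDL118W with a mean of -0.41 and an SD of 0.0297, PAU17 with -0.21 and 0.0371, and YNL115C with -0.08 and 0.0674. Median ratios of the 266 genes were 0.16 in YAC3, 0.09 in YAC7, 0.02 in YAC2, -0.23 in YAC1 and -0.27 in YAC6. The other genes had -1.91, -2.05, -1.91, -2.43 and -2.46 in that order. YAC1 and YAC6, the 2 lowest in both sets, were also the most finely resolved, with a mean signal per bin of 1739 and 1479 times the smallest step of the table, against 396 to 726 in the others. The part of depth and digestion in these offsets was not tested.

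Choosing the genes without a library and reading them in that library measured how far the choice carried over. Of 298 genes chosen without YAC1, 192 (64.4%) were above -0.5 in YAC1, where 4.75% of all genes were. For YAC2 it was 217 of 256 (84.8%, all genes 8.60%), for YAC3 193 of 257 (75.1%, all genes 12.8%) and for YAC7 212 of 247 (85.8%, all genes 9.06%). YAC6 carried over least, with 144 of 330 (43.6%, all genes 5.71%). In every library the share was above that of all genes. The place of the lowest stretch was less steady than the ratio. Its centre stayed within 50 bp over the 5 libraries in 85 filled promoters (32.0%), against 59.3% of the other genes.

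The *K. lactis* and *D. hansenii* strains were compared across all host genes with limma, fitted on 5252 genes with a mean trend and Benjamini-Hochberg adjustment. For the promoter ratio 0 genes passed an adjusted p of 0.05 (0% of those tested), and 7 (0.133%) had an unadjusted p under 0.05. None of these 7 was a filled promoter. The smallest unadjusted p among filled promoters was that of YNL033W, higher in the *K. lactis* strains by 0.49 ± 0.234 (SE), with an adjusted p of 1 in limma. For the depth of the lowest stretch, taken in each library, 0 passed (0%) and 22 (0.419%) had an unadjusted p under 0.05. Of the 266 genes 4 (1.50%) were among them, FDH1, QCR6, YNL033W and RPS17A, each with an adjusted p of 1 in limma. FDH1, a formate dehydrogenase gene, and YNL033W were deeper in the *K. lactis* strains by 1.01 ± 0.430 (SE) and 0.34 ± 0.146 on the log2 scale. QCR6, a subunit of respiratory complex III, and RPS17A were shallower by 1.23 ± 0.524 and 0.99 ± 0.450. The mean depth of YNL033W in the *K. lactis* strains was -3.46, the value of a stretch with no signal at all. MPH2, named below, had the same mean there. The part of missing coverage in these values was not tested. Without YAC3 the depth fit called QCR6 alone of the 5252 genes. Without YAC7 1 *D. hansenii* library remained, so differences alone are given. In that fit QCR6 and LCL1 were shallower in the *K. lactis* strains by 2.37 and 1.79. MPH2, YNL033W and EFT2 were deeper there by 0.66, 0.64 and 1.57. The lone *D. hansenii* library of that fit is assumed to vary like the others.

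Along the chromosomes, genes with filled promoters had ordinary orientations. The upstream neighbour was divergent for 134 of 261 (51.3%), against 51.8% of the others. The divergent partner of a filled promoter had a median ratio of -1.25, against -2.09 for partners of other genes. Both genes of the pair were included in 11 cases, among them HHF2 and HHT2, ACB1 and ORM1, BOL1 and BOL3, and RCN1 and APE2. A shared promoter region is measured by both genes of such a pair, so their values are not independent. RCN1, a calcineurin regulator gene, had ratios of 0.41, 0.82, 1.27, -0.27 and 0.58. An adjacent gene was also a filled promoter in 47 cases (17.9%), against 9.20% for the other genes. Both genes of each of the 11 divergent pairs are among these cases, so part of this share comes from shared promoter regions.

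Of 23 runs of neighbouring filled promoters, 1 held 3 genes. It was DAL2, DCG1 and DAL7 on chromosome IX, in the cluster of genes for the breakdown of allantoin, a poor nitrogen source. DAL2 had a mean ratio of 0.28 ± 0.148 (SD, n = 5), DCG1 0.12 ± 0.188 and DAL7 0.48 ± 0.134. All 3 lay above 0 on average with SDs well under the median of 0.359. Among the outermost 10 genes of each chromosome end there were 20 filled promoters (7.52% of the 266), against 2.46% of the other genes. They included PAU10, FLO1, FLO9, FLO10, COS12 and the glycerol transporter gene STL1, and 9 of the 20 had over 10% of their bins empty in some library. Subtelomeric families have many copies, and the sources used here do not say whether reads with several matches were kept.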

How the data were processed

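The deposited host tables hold signal, the coverage of nucleosomal DNA, which the authors scaled before deposit. Per the file headers, each gene has 151 bins, 1 every 10 bp, between -500 and +1000 bp of its start site. CASAVA 1.7.0 is named in the submitters' processing notes. The sources used here give no aligner, build, origin of the start sites or treatment of reads with several matches, so depth is known only in steps of the tables and no counting interval was computed. Tables of insert genes were not used here. For 214 genes the suffix letter of the name was restored. Symbols and gene order came from an R64 gene table, which matched 5261 of 5264 genes, without coordinates.

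The ratio, the stretches and the shifted profiles were computed with Python 3.11.15, numpy 2.4.6 and pandas 2.3.3, and figures with matplotlib 3.10.9. The fits used limma 3.58.1 in R 4.3.3, tested on simulated data. The genes and the 20 lists were chosen with earlier results of these data known. Genes named were the 12 highest, the 3 on each side of the threshold, the 3 steadiest and 3 least steady, the 4 deepest stretches on each side, the highest 2 of each list and the 2 of smallest p in each direction of the strain comparison. The sequence features planned were not run, since no sequences were used here. Those named beyond this rule, the shifts and the exclusion of genes with empty bins were chosen after values were seen. Alternatives varied the pseudocount, windows, threshold, filter, stretch length, search range and libraries.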

Additional observations from a re-analysis of the deposited data

How the results depend on the processing

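The number of filled promoters depended most on the window and the threshold. It was 446 with a pseudocount of 0.5 times the gene mean, 470 with a promoter window from -150 to 0 bp and 1084 with one from -200 to -20 bp. A threshold of 0 gave 101 and one of -1 gave 642. A window from -80 to -20 bp, added after the data were seen, gave 148, of which 139 were among the 266. Leaving out 1 library gave 247 to 330. The share with a depleted stretch elsewhere was 88.7% for stretches of 50 bp, 56.8% for 150 bp, 85.0% with the search to +1000 bp and 94.7% at a depth of -0.5 or lower, and 69.2% to 76.7% with 1 library left out. The share with the lowest stretch upstream was 28.9% with the search to +1000 bp and 35.3% to 38.7% with 1 library left out. The depth fit called 0 to 10 genes with 1 library left out, and the ratio fit 0 under every alternative run. Of 48 genes named by rule, 33 ratios moved by less than their SD over libraries with the window from -200 to -20 bp, and 40 with the pseudocount of 0.5. The causes were not tested. No paired analysis was possible because the labels give no number that pairs a strain of one group with a strain of the other. Depth limits the coarser libraries YAC2, YAC3 and YAC7 most.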
